A study of Mus musculus with 32 samples.

Results

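Fatty acid elongases are the enzymes that lengthen fatty acids beyond the chain that fatty acid synthase releases. The genes described here were Elovl1, Elovl3, Elovl5 and Elovl6, chosen by name, each through every probe set annotated to it and to no other gene. They made up 4 of the 8251 genes with such a probe set, and 5 of the 12422 probe sets on the array once controls were left out. Elovl6 had 2 probe sets, called A and B here (103665_at and 94418_at), and Elovl1 (95642_at), Elovl3 (103469_at) and Elovl5 (93496_at) had 1 each.

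The study measured total RNA from whole tissue of wild-type FVB mice, an inbred strain, on 32 one-colour oligonucleotide arrays in 9 groups. Mammary gland of mice on laboratory chow was taken on pregnancy days 12 and 17 and on lactation days 1, 2 and 9, with 4 arrays a stage. Dams of the diet series ate chow until lactation day 5 and then a diet with 8% or 40% of its energy from soy oil for 5 days. Gland was taken from them on lactation day 10, with 3 arrays a diet, and liver of the dams on 8% fat gave another 3. A further 3 gland arrays carried the label of 16% dietary fat, for which the feeding schedule was not given. No transgene, knockout or drug was used, and the age of the animals was not given. Tissues were lysed as individual samples, but no label ties an array to an animal, so the p-values below measure the spread between these samples.

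In the endoplasmic reticulum an elongase condenses an acyl-CoA with malonyl-CoA, the first and slowest step of a cycle that a ketoacyl reductase, a dehydratase and an enoyl reductase complete. Each elongase prefers certain chains: ELOVL6 takes palmitate to stearate, ELOVL5 lengthens polyunsaturated acids, ELOVL1 makes the very long saturated and monounsaturated chains of sphingolipids, and ELOVL3 makes very long chains in brown fat, skin glands and liver. The lactating mammary gland synthesizes milk fat from glucose and from dietary lipid, and its secretory cells replace much of the surrounding fat tissue during pregnancy.

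Array medians lay between 16.1 and 21.5 intensity units, and an array correlated with the others of its group at 0.973 to 0.992 on average over probe sets. Levels are given as log2 intensity, so that 1 unit is a doubling, and differences are differences between group means on that scale. Levels of different probe sets cannot be compared, because probes differ in how brightly they bind. All 5 probe sets reached the filter line of 4.22 (the median of all values, 18.6 units) in at least 1 group of each fit. Summed over 8 luminal and secretory markers, intensity was 91638 to 101988 units at lactation day 9 and 30771 to 49189 at pregnancy day 12. Only the milk protein genes of that list, Wap, Csn2 and Lalba, were called higher there; Krt8, Krt18, Krt19 and Cldn3 were called lower, and the median difference of the 8 was -0.92. Summed over 8 white adipocyte markers, it was 1219 to 1951 at lactation day 9 and 7423 to 11718 at pregnancy day 12. Stage differences below therefore stand beside a change in these markers, whose part in them was not tested, and in whole tissue fewer cells of a type and less RNA per cell cannot be told apart.

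The RefSeq promoter windows of Elovl5 and Elovl6 are shown because the account turns on the change of the first with stage and of the second with tissue. Each is the 250 bases before the annotated start on the + strand of mouse build GRCm38.p6, at chr9:77917115-77917364 for Elovl5 and chr3:129532136-129532385 for Elovl6. Capitals mark matches, on either strand, to CCAAT (the box bound by NF-Y), to CACGTG (an E-box) or to TCACNCCAC (a form of the sterol response element bound by SREBP proteins). The table had no window for Elovl3 and 2 windows for Elovl1, of which 1 held a single CCAAT.
Elovl5: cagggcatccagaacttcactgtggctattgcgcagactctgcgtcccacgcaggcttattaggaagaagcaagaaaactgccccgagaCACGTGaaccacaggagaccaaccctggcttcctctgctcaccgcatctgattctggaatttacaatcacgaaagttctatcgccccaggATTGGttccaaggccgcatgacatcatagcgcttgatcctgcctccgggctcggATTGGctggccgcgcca
Elovl6: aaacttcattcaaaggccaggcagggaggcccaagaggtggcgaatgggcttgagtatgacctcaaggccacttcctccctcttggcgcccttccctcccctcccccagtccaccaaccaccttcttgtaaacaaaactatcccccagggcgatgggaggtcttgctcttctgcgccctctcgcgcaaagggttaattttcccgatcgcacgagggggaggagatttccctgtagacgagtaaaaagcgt

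The Elovl5 window held 2 CCAAT boxes, both on the reverse strand and so printed as their reverse complement, ending 67 and 13 bases before the start, and 1 CACGTG ending 156 bases before it. No match overlapped another. The Elovl6 window held none of the 3 letter strings. Among 32851 windows of the same length, 33.8% held CCAAT, 6.02% held CACGTG and 1.05% held TCACNCCAC. A match is only a match of letters, and its absence says nothing of the factor.

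Elovl5, the elongase of polyunsaturated acids, changed most of the 4 genes over the stages, and it did so between late pregnancy and the first day of lactation. On pregnancy day 12 its 4 arrays read 9.37, 9.63, 9.15 and 9.15, and on pregnancy day 17 they read 9.26, 9.26, 9.71 and 9.70. On lactation day 1 they read 11.70, 11.85, 11.77 and 11.86, on day 2 12.27, 11.96, 12.21 and 12.17, and on day 9 12.00, 12.66, 12.77 and 12.53. The lowest lactation array stood well above the highest pregnancy array, and the pregnancy days overlapped.

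The change of Elovl5 at lactation day 1 over pregnancy day 17 was 2.31 ± 0.16 (SE, n = 4 each), 4.97-fold, with an adjusted p of 3.09e-09 in limma (moderated statistics, Benjamini-Hochberg over all probe sets tested). It ranked 40 by size among 7189 probe sets. Between pregnancy days 17 and 12 the difference was 0.16 (95% interval -0.17 to 0.48, adjusted p 0.422 in limma). Lactation day 2 was above day 1 by 0.36 with no overlap between the groups (limma adjusted p 0.120, and 0.0314 with those 2 groups alone in the fit), and day 9 above day 2 by 0.34 with overlap (limma adjusted p 0.124). The day 9 arrays included replicate 1 at 12.00, below the other 3. Without it the difference from day 2 was 0.50 with a limma adjusted p of 0.0152. That array also read lowest of its group for Elovl1 and both Elovl6 probe sets. Its mean correlation with its own group, 0.973, was the lowest of all arrays. By lactation day 9 Elovl5 was 8.98-fold above pregnancy day 12 (3.17 ± 0.16, SE, limma adjusted p 2.77e-12).

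Elovl1, which serves sphingolipid synthesis, rose earlier and less. Its arrays read 6.47, 6.21, 6.57 and 6.46 on pregnancy day 12, then 7.48, 7.42, 6.86 and 7.20 on pregnancy day 17. They read 8.42, 8.01, 7.66 and 7.82 on lactation day 1, 8.25, 7.87, 8.00 and 8.08 on day 2, and 7.55, 7.66, 7.91 and 7.95 on day 9. All pregnancy day 17 arrays lay above those of day 12, all lactation arrays lay above both, and the lactation days overlapped each other.

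Elovl1 at pregnancy day 17 was 0.81 ± 0.16 above day 12 (SE, n = 4 each, limma adjusted p 0.000451), and at lactation day 1 it was 0.74 ± 0.16 above pregnancy day 17 (limma adjusted p 0.00209). Within lactation no difference passed: day 2 minus day 1 was 0.07 (adjusted p 0.778) and day 9 minus day 2 was -0.28 (adjusted p 0.215), both in limma. Day 9 stayed above pregnancy day 17 by 0.53 (limma adjusted p 0.00732). With arrays scaled to equal medians of 50 probe sets with ribosomal protein symbols, that difference was 0.07 (limma adjusted p 0.703). These were picked by the start of the symbol, which also admits Rps6k kinase genes. That scaling shifted the median of all probe sets in this comparison by -0.45. A scaling on the 26 brighter ones, with Rps6k genes left out, shifted it by 0.38.

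**Figure D1:**
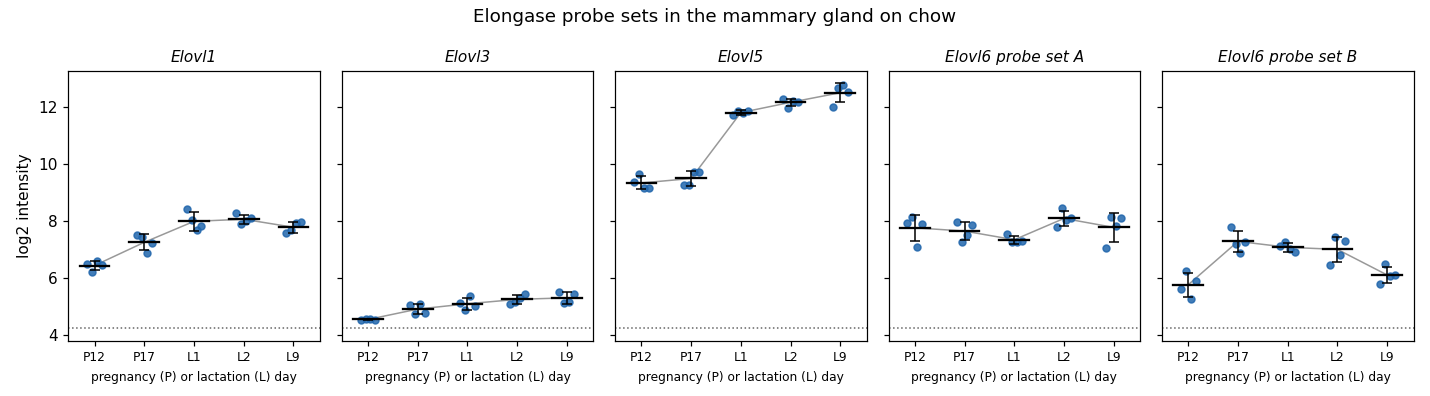
Log2 intensity of the 5 elongase probe sets in mammary gland of mice on chow, by pregnancy (P) or lactation (L) day. Points are arrays (4 a stage), bars the mean with SD and the dotted line the filter line of 4.22; Elovl5 stands at 11.70 to 12.77 in lactation and at 9.15 to 9.71 in pregnancy.

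The plot of levels by stage shows the step of Elovl5 between pregnancy day 17 and lactation day 1 beside the earlier rise of Elovl1. It also shows that the Elovl6 probe sets did not run together.

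Elovl6, the enzyme that extends palmitate to stearate, gave a different time course with each of its probe sets. Probe set A read 7.91, 8.13, 7.08 and 7.89 on pregnancy day 12, 7.95, 7.24, 7.51 and 7.83 on pregnancy day 17, and 7.55, 7.26, 7.24 and 7.28 on lactation day 1. It read 7.77, 8.44, 8.02 and 8.10 on lactation day 2 and 7.04, 8.12, 7.82 and 8.08 on day 9. These stages overlapped except for lactation day 2 over day 1.

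Probe set B read 5.60, 6.25, 5.26 and 5.90 on pregnancy day 12 and 7.79, 7.18, 6.88 and 7.24 on pregnancy day 17, which did not overlap. It read 7.10, 7.26, 7.01 and 6.90 on lactation day 1, 6.44, 7.41, 6.81 and 7.30 on day 2, and 5.77, 6.46, 6.06 and 6.09 on day 9. The arrays from pregnancy day 17 to lactation day 2 all lay above those of pregnancy day 12, and those of lactation day 9 overlapped pregnancy day 12 (difference 0.34, limma adjusted p 0.180).

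In limma, probe set B was 1.52 higher on pregnancy day 17 than on day 12 (adjusted p 3.34e-05) while probe set A differed by -0.12 (adjusted p 0.707). At lactation day 9 probe set B fell by 1.18 below pregnancy day 17, 2.26-fold (limma adjusted p 0.000215), and by 0.90 below lactation day 2 (adjusted p 0.00686), while probe set A differed from those stages by 0.13 and -0.32 (adjusted p 0.649 and 0.363). Without replicate 1 of lactation day 9, those differences of probe set A were 0.37 and -0.07, and neither was called. Probe set A instead rose by 0.75 on lactation day 2 over day 1 (limma adjusted p 0.0415). That call was lost when any 1 of 6 of the 8 arrays was left out (replicates 2, 3 and 4 of each day), with differences of 0.63 to 0.77 and adjusted p up to 0.103, and also without the filter (adjusted p 0.0588).

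The disagreement was measured within arrays, as probe set A minus probe set B, in an analysis chosen after the values were seen. The difference averaged 0.36 ± 0.29 on pregnancy day 17 and 2.00 ± 0.22 on day 12 (SD, n = 4 each). An exact two-sided permutation test gave p = 0.0286, the smallest that 4 arrays against 4 allow, and 0.0857 after Benjamini-Hochberg adjustment over 12 comparisons. The same p came from lactation day 2 over pregnancy day 17 and over lactation day 1, and from day 9 over pregnancy day 17 (0.73, 0.82 and 1.31). In the other comparisons the permutation p was 0.0571 to 0.8. With so large a smallest p, adjusted values could fall under 0.05 only if many comparisons reached it. Over the 29 mammary arrays the probe sets correlated at 0.42, a description that follows the stages the arrays share. Which of the 2 follows the transcript was not tested, and probe sequences were not used here.

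Elovl3, an elongase of very long chains, read low throughout, near the filter line. Its arrays read 4.53, 4.54, 4.53 and 4.53 on pregnancy day 12 and 5.04, 4.71, 5.07 and 4.77 on pregnancy day 17. They read 5.10, 4.87, 5.36 and 5.01 on lactation day 1, 5.08, 5.16, 5.29 and 5.42 on day 2, and 5.50, 5.10, 5.13 and 5.44 on day 9. Pregnancy day 12 lay below every later stage, and the later stages mostly overlapped.

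Elovl3 was 0.76 ± 0.12 higher on lactation day 9 than on pregnancy day 12 (SE, n = 4 each, limma adjusted p 1.53e-05), and 0.25 higher (adjusted p 0.112) when arrays were scaled to ribosomal medians. It was 0.39 higher on lactation day 9 than on pregnancy day 17 (limma adjusted p 0.00879), a sign that turned to -0.06 under that scaling. On pregnancy day 17 over day 12 it was 0.37 higher (limma adjusted p 0.0216), which was lost without replicate 1 or replicate 3 of pregnancy day 17 (0.32 and 0.31, adjusted p 0.0606 and 0.0690) and under ribosomal scaling (0.31, adjusted p 0.0870). On lactation day 2 over pregnancy day 17 it was 0.34 higher (limma adjusted p 0.0278), which was lost without replicate 3 or 4 of lactation day 2 or replicate 2 or 4 of pregnancy day 17 (0.28 to 0.32, adjusted p 0.0630 to 0.0942). Under ribosomal scaling that difference was 0.02 (limma adjusted p 0.905). Scaling on the 26 brighter ribosomal probe sets moved these differences the other way. It gave 1.24 for lactation day 9 over pregnancy day 12 and 0.77 over pregnancy day 17. It gave 0.46 for pregnancy day 17 over day 12 and 0.78 for lactation day 2 over pregnancy day 17. Lactation day 1 over pregnancy day 17, at 0.19 and not called, became 0.43 (limma adjusted p 0.0136).

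The low end of the arrays also differed between groups, in some comparisons by about as much as Elovl3 or by more. Y-linked genes carry no transcripts in female mice, and the mean of 3 of their probe sets (Kdm5d, Uty and Eif2s3y, chosen after values were seen) was 3.97 ± 0.16 on lactation day 9 and 3.21 ± 0.09 on pregnancy day 12 (SD, n = 4 each). That mean differed by 0.76 between those stages and the lower quartile of all probe sets by 0.43, beside the 0.76 of Elovl3. For lactation day 2 over pregnancy day 17 the values were 0.34 for the Y-linked mean, 0.19 for the lower quartile and 0.34 for Elovl3. For pregnancy day 17 over day 12 they were 0.23, 0.13 and 0.37, in the same order. Lactation day 9 over pregnancy day 17 gave 0.53, 0.30 and 0.39. They were 0.19, 0.11 and 0.05 for lactation day 9 over day 2, and 0.02, 0.03 and 0.12 for 40% over 8% fat. Gland on 8% fat over chow gave -0.34, -0.19 and -0.13. Among the pregnancy day 12 arrays the SD of Elovl3 was 0.007, beside 0.09 for the Y-linked mean.

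**Figure D2:**
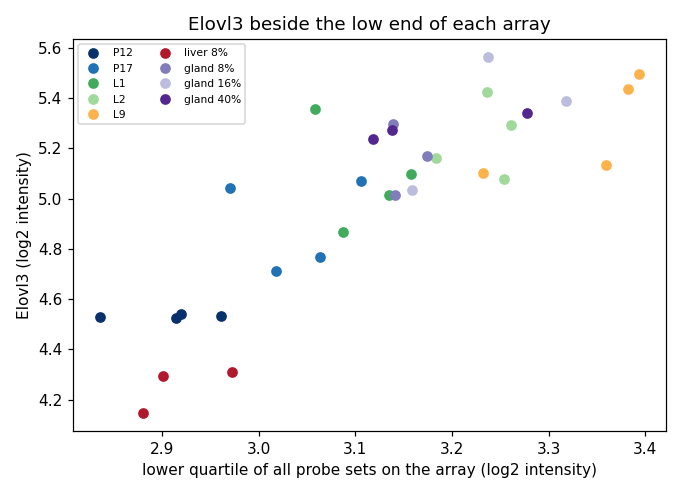
Elovl3 (log2 intensity, vertical axis) against the lower quartile of all probe sets (log2 intensity, horizontal axis), 1 point an array, coloured by group. Arrays of lactation day 9 lie high on the horizontal axis with Elovl3 at 5.10 to 5.50, and those of pregnancy day 12 and of liver lie low on both axes.

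The plot of Elovl3 beside the low end of each array shows that both measures were lowest in the same groups; their relation was not tested. Brown adipocyte markers, of which Elovl3 is one in mice, summed to 11036 to 12954 units on lactation day 9 and to 293 to 468 on pregnancy day 12. Most of that sum was Cidea, a lipid droplet protein that the lactating gland also makes, at 13.55 ± 0.11 on lactation day 9 and 7.38 ± 0.61 on pregnancy day 12 (SD, n = 4 each). Ucp1, the defining uncoupling protein of brown fat, was at 4.83 ± 0.17 on lactation day 9 and 5.00 ± 1.21 on pregnancy day 12. Of the 4 brown adipocyte markers tested between these stages 2 were called higher and none lower, where 77.6% of all probe sets were called. They were Cidea and Cox7a1, the latter by 0.46 (limma adjusted p 0.000123), beside 0.76 for the Y-linked mean. Cox8b differed by 0.32 (limma adjusted p 0.0844). On lactation day 9 over pregnancy day 17 Cox8b was 0.75 higher (limma adjusted p 0.000602). For lactation day 2 over pregnancy day 17, 3 of 4 brown adipocyte markers tested were called higher. Of all probe sets 49.9% were called there, in either direction. The markers were Cidea by 2.63, Cox7a1 by 0.30 and Ucp1 by 1.39 (limma adjusted p 0.0398 for Ucp1). Cox7a1 read near the filter line, at 4.27 on lactation day 2 and 3.97 on pregnancy day 17. Its 0.30 was no larger than the 0.34 of the Y-linked mean in that comparison. Ucp1 was at 5.99 ± 1.27 on lactation day 2 and 4.60 ± 0.29 on pregnancy day 17 (SD, n = 4 each), and the part of these markers in the Elovl3 difference was not tested. Of 5 sebaceous and skin markers with a probe set, 4 were below the filter line in every mammary group. Probe sets that read so low in every group cannot show whether skin tissue was present.

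Over the 5 chow stages, 4 of the 5 elongase probe sets passed limma's moderated F test, all but Elovl6 probe set A (adjusted p 0.0771), where 87.5% of all probe sets passed. For pregnancy day 17 over day 12, 3 were higher and none lower, with 45.1% of all probe sets called. For lactation day 1 over pregnancy day 17, 2 were higher, with 23.3% called, and for lactation day 2 over pregnancy day 17, 3 were higher, with 49.9% called. For lactation day 2 over day 1 the count was 1 higher (14.3% called), and for day 9 over day 2 it was 1 lower (25.0% called). For lactation day 9, 3 were higher and 1 lower than on pregnancy day 17 (64.0% called), and 3 were higher than on pregnancy day 12 (77.6% called). These shares are near the background in most comparisons, so the counts do not set the elongases apart from other genes.

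**Figure D3:**
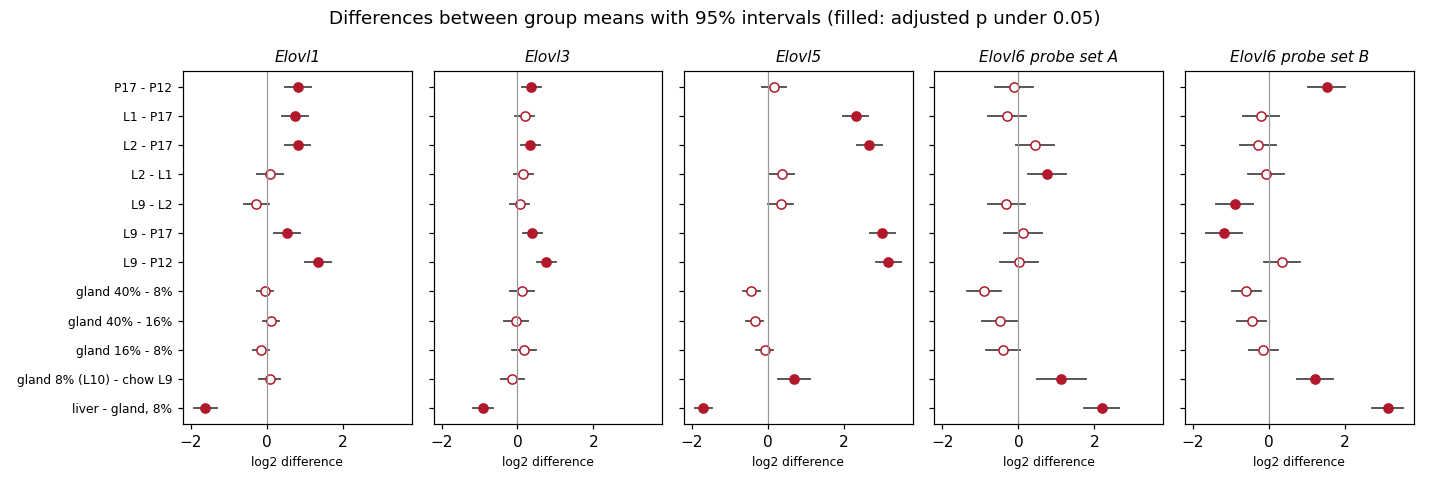
Differences between group means (log2 scale, horizontal axis) with 95% intervals for each elongase probe set in 12 comparisons, the first-named group minus the second. Filled points had a limma adjusted p under 0.05; Elovl5 reaches 3.17 over the stages and the liver differences of Elovl6 are 2.19 and 3.13.

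The plot of differences shows where direction was shared among members and where it was not. Elovl1, Elovl3 and Elovl5 were higher on lactation day 9 than on pregnancy day 12, and lower in liver than in gland, and both Elovl6 probe sets were higher in liver. The direction of Elovl3 in liver depended on scaling, as given with the tissues below.

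In gland on 40% fat, Elovl5 and Elovl6 read lower than on 8% or 16% fat, but no elongase passed the test across all probe sets. The diets are those of the sample titles; the descriptions of the 8% and 16% gland arrays name 40% fat, so these results rest on the titles. Elovl5 read 13.21, 13.07 and 13.26 on 8% fat, 13.04, 13.13 and 13.10 on 16% and 12.61, 12.73 and 12.87 on 40%. Elovl6 probe set A read 8.98, 9.20 and 8.48 on 8%, 8.46, 8.38 and 8.61 on 16% and 8.25, 8.09 and 7.61 on 40%. Probe set B read 7.28, 7.68 and 6.95 on 8%, 7.18, 7.06 and 7.24 on 16% and 6.82, 6.78 and 6.52 on 40%.

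In all 3 probe sets the 40% arrays lay below every array of both other diets. The share of all probe sets that were lower without overlap was 5.98% for 40% over 8% and 11.0% for 40% over 16%. The 3 probe sets stand for 2 genes, and exact permutation of 3 arrays against 3 cannot give a two-sided p below 0.10. Elovl1 and Elovl3 overlapped between 40% and 8% fat.

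For 40% over 8% fat the difference was -0.90 ± 0.20 for Elovl6 probe set A (SE, n = 3 each, 95% interval -1.36 to -0.45, rank 32 of 6483 by size), with a limma p of 0.00137 and an adjusted p of 0.190. Probe set B differed by -0.60 ± 0.17 (95% interval -0.98 to -0.22, limma adjusted p 0.316) and Elovl5 by -0.44 ± 0.10 (95% interval -0.67 to -0.22, limma adjusted p 0.190). Elovl1 differed by -0.05 (95% interval -0.26 to 0.16) and Elovl3 by 0.12 (95% interval -0.19 to 0.43). Of the elongase probe sets 0 were called, where 6 of 6483 probe sets, 0.0925%, were called and 538 had an unadjusted p under 0.05.

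For 40% over 16% fat the same 3 probe sets differed by -0.35 (Elovl5), -0.50 (Elovl6 probe set A) and -0.45 (probe set B), with limma adjusted p of 0.191, 0.330 and 0.281. Here 8 probe sets, 0.123%, were called, none of them an elongase, and 886 had an unadjusted p under 0.05. For 16% over 8% fat no probe set was called in limma (0%), although 800 had an unadjusted p under 0.05, and Elovl6 probe set A differed by -0.40 (95% interval -0.86 to 0.05). These comparisons share arrays, so their values do not support each other. On simulated data 86.5% of 2-fold and 49.5% of 1.5-fold changes were recovered for 40% over 8%. That simulation planted 200 changed probe sets, where 6 were called in the data. Fewer calls make the adjusted threshold stricter, so these rates overstate what the real comparison could recover.

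Glands of dams on the 8% fat diet had more Elovl5 and Elovl6 signal than glands on chow a day earlier in lactation, with the 8% group again taken from the titles. Elovl5 differed by 0.69 ± 0.18 (SE, 3 and 4 arrays, limma adjusted p 0.0433), Elovl6 probe set A by 1.12 ± 0.28 (adjusted p 0.0397) and probe set B by 1.21 ± 0.21 (adjusted p 0.0146). The groups did not overlap in any of the 3: the lowest 8% arrays read 13.07, 8.48 and 6.95 and the highest chow arrays 12.77, 8.12 and 6.46. Elovl1 differed by 0.07 (95% interval -0.20 to 0.34) and Elovl3 by -0.13 (95% interval -0.44 to 0.17). Thus 3 of 5 were higher, where 15.3% of all probe sets were called.

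In that comparison probe set B was called with any single array left out (adjusted p up to 0.0493). Elovl5 was not called without any 1 of the 8% arrays or chow replicate 4 (0.65 to 0.74, adjusted p 0.0925 to 0.127), and Elovl6 probe set A was not called without any 1 of the 8% arrays or chow replicate 3 or 4 (0.97 to 1.32, adjusted p 0.0574 to 0.129). Diet, lactation day and the series the arrays belong to cannot be told apart here.

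**Figure D4:**
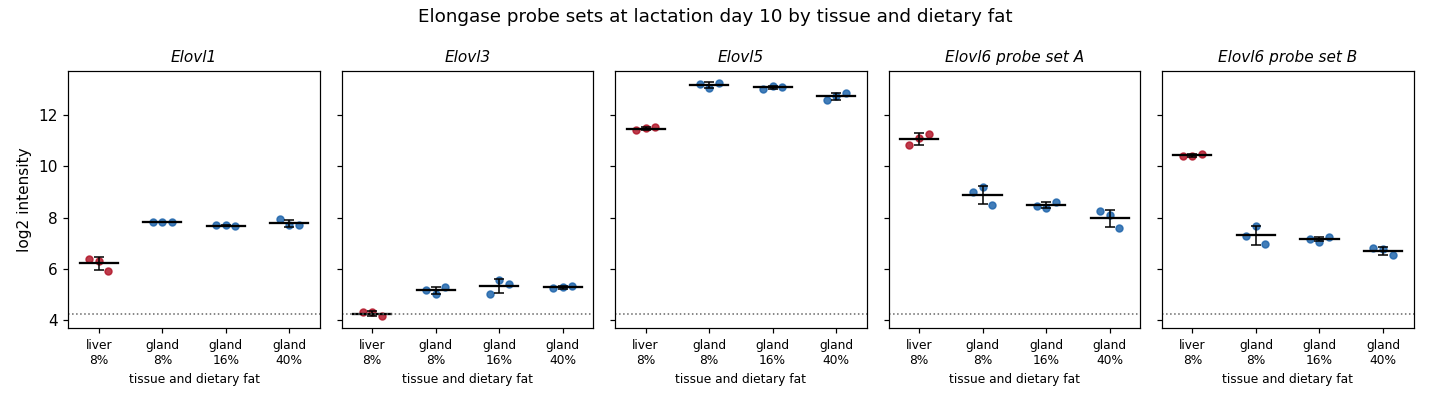
Log2 intensity of the 5 elongase probe sets on lactation day 10 in liver (8% fat) and in gland on 8, 16 and 40% fat. Points are arrays (3 a group), bars the mean with SD and the dotted line the filter line of 4.22; Elovl6 probe set A reads 10.83 to 11.28 in liver, and in gland 7.61 to 8.25 on 40% fat and 8.48 to 9.20 on 8%.

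Hepatocyte and milk protein genes went with the tissue labels: all 10 hepatocyte markers with a probe set were higher in liver, where they summed to 124639 to 137630 units, against 499 to 1275 in gland on the same diet. Luminal and secretory markers summed to 1591 to 1734 in liver and to 92186 to 96341 in gland. Of these 8 markers 5 were lower in liver, the milk protein genes, Epcam and Krt19, and 3 were higher, Krt8 by 0.45, Krt18 by 0.63 and Cldn3 by 1.55. The plot of levels by tissue and diet shows Elovl6 on the opposite side of the tissue difference from the other 3 genes.

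Elovl6 probe set A read 10.83, 11.13 and 11.28 in liver, against 8.98, 9.20 and 8.48 in gland on 8% fat. Probe set B read 10.40, 10.39 and 10.50 in liver, against 7.28, 7.68 and 6.95 in gland. The liver was 2.19 ± 0.20 higher by probe set A, 4.56-fold, and 3.13 ± 0.18 higher by probe set B, 8.73-fold (SE, n = 3 each, limma adjusted p 2.54e-05 and 1.47e-06).

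Elovl5 read 11.41, 11.50 and 11.52 in liver, against 13.21, 13.07 and 13.26 in gland, and fell by 1.71 ± 0.09 (SE, limma adjusted p 1.37e-06). Elovl1 read 6.39, 6.32 and 5.92 in liver, against 7.85, 7.84 and 7.83 in gland, and fell by 1.63 ± 0.13 (SE, limma adjusted p 1.37e-05). No liver array of either gene overlapped a gland array of that diet.

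Elovl3 read 4.31, 4.30 and 4.15 in liver, at the filter line, against 5.17, 5.01 and 5.30 in gland. The difference was -0.91 ± 0.11 (SE, limma adjusted p 0.000124), beside -0.43 for the 3 Y-linked probe sets, and it turned to 0.13 (adjusted p 0.308) when arrays were scaled on the 26 brighter ribosomal probe sets. That scaling shifted the median of all probe sets by 1.03 in this comparison. All 5 elongase probe sets were called, 2 higher and 3 lower, where 80.0% of all probe sets were called.

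Over all 9 groups, Elovl5 was highest in gland on 8% fat (13.18 ± 0.10) and on 16% (13.09 ± 0.05), which overlapped, then on 40% (12.74 ± 0.13). Chow lactation days 9, 2 and 1 followed, then liver (11.47 ± 0.06) and the pregnancy days, and neighbours overlapped only between 40% fat and chow day 9, between days 9 and 2, and between the pregnancy days. Elovl1 was highest on chow lactation day 2 (8.05 ± 0.16), with all 6 lactating groups overlapping their neighbours, and lowest in liver (6.21 ± 0.25), which overlapped pregnancy day 12. For both Elovl6 probe sets liver stood apart at the top, gland on 8% fat came next and most neighbours below it overlapped. Elovl3 was lowest in liver (4.25 ± 0.09) and next lowest on pregnancy day 12 (4.53 ± 0.01), neither of which overlapped its neighbour (SD, n = 3 for liver and diets, n = 4 for chow stages).

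The elongation cycle needs partner enzymes, and of 9 listed partners and other elongases 3 had a probe set. Hacd3, a dehydratase of the cycle, was 1.04 lower on lactation day 2 than on pregnancy day 17, opposite in sign to Elovl5, and 2.03 higher in liver than in gland on 8% fat. Hsd17b12, the ketoacyl reductase, was 0.41 higher in that stage comparison and fell by 0.85 in liver, and all 4 values were called by limma. Elovl2, an elongase of long polyunsaturated acids, was at 9.22 ± 0.21 in liver and at 2.51 ± 0.03 in gland (SD, n = 3 each), the gland below the filter line. On lactation day 1 over pregnancy day 17, 0 of the 2 partners tested were called, with differences of -0.29 for Hacd3 and 0.24 for Hsd17b12 (limma adjusted p 0.250 and 0.196).

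Some genes that supply the cycle were higher on lactation day 1 than on pregnancy day 17, where 23.3% of all probe sets were called in either direction. Of 7 listed genes of malonyl-CoA and palmitate supply 3 were higher and none lower (median 0.43, against 0.03 over all probe sets): the citrate carrier Slc25a1 by 1.91, ATP citrate lyase Acly by 1.15 and the lipogenic protein Thrsp by 0.80. Fasn, fatty acid synthase, differed by 0.43 (limma adjusted p 0.0504). Of 4 desaturases 3 were higher (median 0.81): Scd2 by 2.11, Fads1, which acts on the polyunsaturated chains that ELOVL5 extends, by 0.92, and Scd1 by 0.71. Of 5 regulators tested 2 were higher, Srebf1, which encodes a lipogenic transcription factor, by 1.04 and Mlx by 0.63. Of 4 genes of acyl-CoA activation and binding 2 were lower, the thioesterase Acot1 by 4.61 and the acyl-CoA binding protein Dbi by 0.96.

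For 40% over 8% fat, where 0.0925% of all probe sets were called, 1 of 4 desaturases and 1 of 7 supply genes were lower and none higher, with medians of -0.52 and -0.40, against 0.01 over all probe sets. Scd1, which desaturates the stearate that ELOVL6 makes, fell by 1.29 (limma adjusted p 0.00118), and Slc25a1 fell by 0.85 (adjusted p 0.0231). Fasn differed by -0.40 and Srebf1 by -0.72 (limma adjusted p 0.190 and 0.322), and neither passed. Of 5 regulators, 4 acyl-CoA genes and 2 cycle partners tested, none was called.

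In liver over gland on 8% fat, where 80.0% of all probe sets were called, most listed genes were called too, so the counts do not set the lists apart. There 5 of 7 supply genes were lower and 1 was higher (median -1.71, against -0.01 over all probe sets), and of 4 desaturases 3 were lower and 1 higher. Fads1 fell by 1.80, on the side of Elovl5, and Scd2 fell by 5.91. All 4 acyl-CoA genes were higher, Acsl5, a long-chain acyl-CoA synthetase, by 3.72. Elovl6 was thus higher in the tissue where Fasn fell by 1.71.

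**Figure D5:**
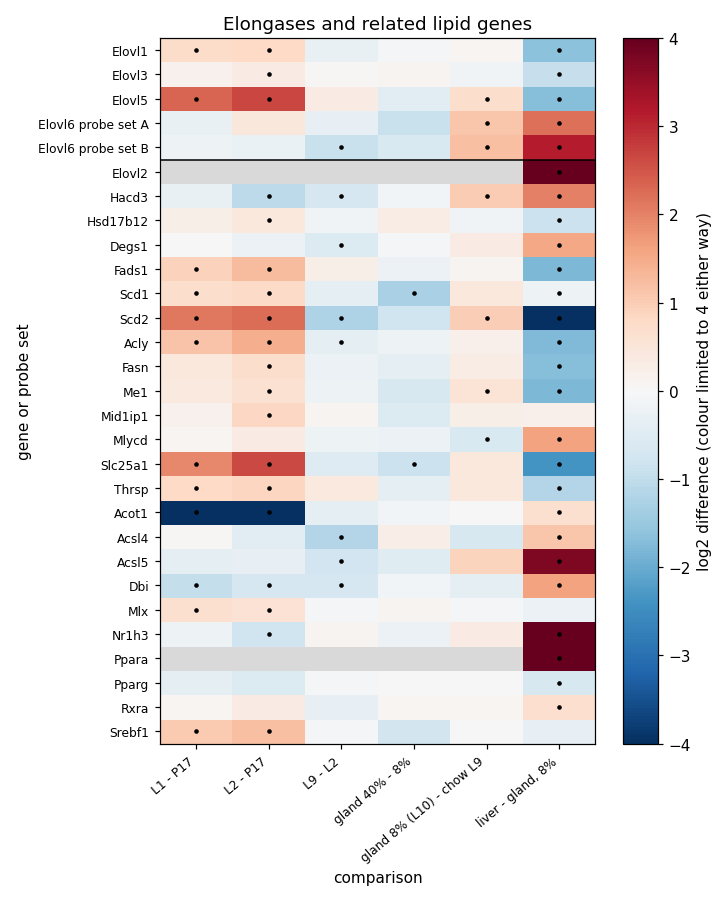
Log2 differences of the elongase probe sets (above the line) and of listed lipid genes (below it) in 6 comparisons, the first-named group minus the second; dots mark a limma adjusted p under 0.05 and grey cells were not tested. Elovl5 (2.31), Slc25a1 (1.91) and Scd2 (2.11) are higher on lactation day 1 over pregnancy day 17, and liver splits Elovl6 from Fasn.

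The map of differences places each elongase beside genes of its pathway, and its columns share control arrays where they share a stage or the 8% gland. Over the 29 mammary arrays and 5512 genes, the genes most like Elovl5 in log2 level were Mfsd4a (Pearson r 0.981), Osbpl1a (0.977) and Gjb1 (0.972). For Elovl1 they were Mfge8 (0.936), Fkbp11 (0.929) and Gnmt (0.920), and for Elovl3 Taf15 (0.912), P2rx7 (0.885) and Dynlt3 (0.882). Elovl6, by probe set A, had looser neighbours in Mknk2 (0.779), Coq9 (0.736) and C77080 (0.732). Among the elongases Elovl1 and Elovl5 correlated at 0.76 and Elovl3 and Elovl5 at 0.77. The arrays share stages and diets, so these are descriptions of shared pattern with no test.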

How the data were processed

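The authors' deposited table holds linear GCRMA intensity values of 12488 probe sets on 32 arrays, per the submitters' processing notes; the GCRMA version is not given in the sources used here. The 66 control probe sets were left out. Groups come from the sample titles, because the descriptions of all 6 gland arrays titled 8% or 16% fat name 40% fat. Liver on 40% fat is not analysed here. Probe sets were named through the platform annotation: 10833 had 1 gene, 396 several and 1193 none, and 10817 symbols matched the RefSeq table.

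Values were floored at 1 (208 values were below it) and log2 transformed. Probe sets whose highest group mean reached the median of all values (18.6) were tested with limma 3.58.1 (lmFit and eBayes) in R 4.3.3, in separate fits for the 20 chow arrays, the 9 gland diet arrays, gland on 8% fat with chow lactation day 9, and liver with gland on 8% fat. P-values were adjusted by Benjamini-Hochberg over all probe sets of a comparison, with calls under 0.05. Exact permutation tests used scipy 1.17.1, and figures matplotlib 3.10.9. On simulated data the fit recovered 92.5% of 2-fold and 57.0% of 1.5-fold changes for lactation day 2 over pregnancy day 17. There 200 changed probe sets were planted, where 3589 were called in the data, so these rates need not hold for the real comparison. No 2 arrays were identical, and the number of arrays limits the precision.

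Every elongase probe set is reported. Of the pathway lists, counts and up to 4 called and 2 uncalled members by size of change are named, through the probe set of highest mean, and Srebf1, Fasn and Scd1 always; likeness names the 3 genes of highest correlation. The members and lists were chosen with earlier results of these data known. Replicate numbers were not treated as pairs: in no comparison did every same-numbered pair of arrays correlate above 0.1 in their deviations (-0.23 to 0.26 over all). That rule cannot exclude pairing. Every same-numbered pair correlated positively for lactation day 2 over day 1 (0.073 to 0.135), 40% over 16% fat (0.035 to 0.142) and 16% over 8% fat (0.020 to 0.107). Alternatives were log2 offsets, floors, filters, quantile and ribosomal scaling, other sets of arrays in the fit, a replicate block and leaving out each array; scaling on the brighter ribosomal probe sets was added after seeing the data.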

Additional observations from a re-analysis of the deposited data

Results flagged for a closer look

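One value of an elongase probe set lay far from the other arrays of its group. Elovl6 probe set A read 7.55 on replicate 1 of lactation day 1, against 7.24 to 7.28 on the other 3 arrays, and the gap was 0.890 of the whole range. In the 25 groups of 4 arrays examined, chance alone flags about 1 in 20, so about 1 such value in all, as many as were seen. Without that array probe set A was still higher on lactation day 2 than on day 1.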

How the results depend on the processing

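Of 1093 alternative values for 60 pairs of probe set and comparison, 1016 kept their direction and their side of the threshold, 32 lost a call, 11 gained one and 34 changed sign, 2 of these in a called pair. Of 25 called pairs, 16 were called the same way under every alternative run. Scaling to 50 ribosomal probe sets, 23 of them below the filter line, gave differences of opposite sign for Elovl1 (lactation day 2 over day 1, -0.19), Elovl3 (lactation day 2 over day 1 -0.11, day 9 over day 2 -0.082, day 9 over pregnancy day 17 -0.059, 40% over 16% fat 0.020, 16% over 8% fat -0.0037, 8% fat over chow 0.21), Elovl6 probe set A (lactation day 9 over pregnancy days 17 and 12, -0.33 and -0.50) and probe set B (lactation day 9 over pregnancy day 12, -0.17). Scaling to the 26 brighter ones did so for Elovl6 probe set B (0.040 and 0.16 for lactation days 1 and 2 over pregnancy day 17, 0.12 for day 2 over day 1), Elovl3 (day 9 over day 2 -0.0076, 40% over 16% fat 0.061, liver 0.13) and Elovl1 (40% over 8% fat 0.084, 8% fat over chow -0.13). Quantile normalization did so for Elovl6 probe set A on pregnancy day 17 over day 12 (0.011), probe set B on lactation day 2 over day 1 (0.026) and Elovl1 in 8% fat over chow (-0.11). The cause was not tested. The ribosomal scalings shifted the median of all probe sets by -0.51 to 0.35 (50 probe sets) and by -0.20 to 1.03 (26). The 50 were picked by the start of the symbol, which also admits Rps6k kinase genes, and the 26 left such genes out.

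Leaving out 1 array at a time gave ranges across 0 for Elovl1 in 8% fat over chow (-0.0031 to 0.13) and lactation day 2 over day 1 (-0.033 to 0.22), Elovl3 in 40% over 16% fat (-0.19 to 0.071) and lactation day 9 over day 2 (-0.013 to 0.12), Elovl6 probe set A on lactation day 9 over pregnancy day 12 (-0.21 to 0.25) and day 17 (-0.0018 to 0.37) and on pregnancy day 17 over day 12 (-0.34 to 0.015), and probe set B in 16% over 8% fat (-0.32 to 0.045) and lactation day 2 over day 1 (-0.21 to 0.11). None of these was called.

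The count of called elongase probe sets for lactation day 2 over day 1 was 1, but 0 without the filter or with 50 ribosomal probe sets, 2 with only the compared groups, 3 with the 26 brighter ones and 0 to 1 without single arrays. For lactation day 9 it was 5 over pregnancy day 12 with quantile normalization, 2 over pregnancy day 17 with 50 ribosomal probe sets, and 1 to 2 over day 2 without single arrays. The calls gained over pregnancy day 12 were Elovl6 probe sets A (0.53, limma adjusted p 0.0413) and B (0.74, adjusted p 0.00416). For lactation day 2 over pregnancy day 17, probe set A was called with quantile normalization (0.64, limma adjusted p 0.0290) and with the 26 brighter ones (0.89, adjusted p 0.00264). For 8% fat over chow the count was 1 with quantile normalization, 1 to 3 without single arrays and up to 4 over the other alternatives. With 50 ribosomal probe sets Elovl1 was called there (0.42, limma adjusted p 0.0466). With the 26 brighter ones Elovl5 was not (0.49, limma adjusted p 0.0716). The replicate block left 1 there, with Elovl5 at 0.70 (adjusted p 0.117) and Elovl6 probe set A at 1.23 (adjusted p 0.0799), and changed no other elongase call.

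Counts over all probe sets ranged more widely: 60 to 5128 for 8% fat over chow (main 1029), 1 to 16 for 40% over 8% (main 6), 1 to 34 for 40% over 16% (main 8) and 0 to 27 for 16% over 8% (main 0). For stages they were 1890 to 6873 for pregnancy day 17 over day 12, 1340 to 3401 and 2107 to 7676 for lactation days 1 and 2 over pregnancy day 17, 523 to 2573 for day 2 over day 1, 3085 to 10370 and 2601 to 9266 for day 9 over pregnancy days 12 and 17, and 3368 to 10292 for liver over gland. Elovl3 lies near the filter line, where its signal over background limits what can be read.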
